A study of Mus musculus with 3 samples.

Results

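Hlx, Htr7 and Dok2 are 3 of the 33700 genes listed in each library of cultured mouse splenic B cells. They were chosen from these same values as genes far lower with JQ1+ than with flavopiridol while within 2-fold of DMSO under flavopiridol, and they were found by gene symbol in all 3 tables. Their RPKM levels in the 3 libraries therefore chose them, and these levels are given below as a description, with no test. RPKM scales the reads of a gene to its length and to a library total. Levels can thus be compared between genes, and between libraries only relative to each library's total. A change in the total RNA per cell is not seen in such values.

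The cells were C57BL/6 spleen cells without surface CD43, a marker that resting B cells lack, and all cultures received lipopolysaccharide, which activates B cells through Toll-like receptor signalling, and the cytokine interleukin-4. A library was made from cells given JQ1+ at 80 nM, from cells given flavopiridol at 30 nM and from cells given DMSO, each for 3 days. JQ1 displaces BET bromodomain proteins from acetylated chromatin, and flavopiridol inhibits cyclin-dependent kinases, among them Cdk9, which releases paused RNA polymerase. With 1 library per group no test across replicates was possible. Intervals are at 95% and cover counting error only.

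The 3 genes belong to separate systems. Hlx encodes a homeobox transcription factor of the NKL class, needed in mice for growth of the gut and liver, which works with T-bet to raise interferon-gamma in T helper cells. Htr7 encodes a serotonin receptor that couples to the stimulatory G protein Gs and so raises cyclic AMP, the messenger that activates protein kinase A. Dok2 encodes an adaptor that is phosphorylated by tyrosine kinases, recruits a GTPase-activating protein for RAS and thereby damps RAS and ERK signalling; it is best known in myeloid and T cells, whereas its relative Dok3 is the family member most studied in B cells.

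Promoter sequences were available from RefSeq (build GRCm38.p6) for 2 of the 3 genes, Hlx and Htr7. They are printed because the start regions of these genes are unlike in composition. Both genes were chosen for their low JQ1+ level, so their shared fall is not a result. Each runs 5′ to 3′ on the minus strand, from 250 bases before to 50 bases after the gene's start. Hlx lies at chr1:184732444-184732743 and Htr7 at chr19:36057311-36057610. Capitals mark the letters CCAAT, read on either strand, in Hlx and TGACG, also read on either strand and the core letters of the cyclic AMP response element, in Htr7.
Hlx: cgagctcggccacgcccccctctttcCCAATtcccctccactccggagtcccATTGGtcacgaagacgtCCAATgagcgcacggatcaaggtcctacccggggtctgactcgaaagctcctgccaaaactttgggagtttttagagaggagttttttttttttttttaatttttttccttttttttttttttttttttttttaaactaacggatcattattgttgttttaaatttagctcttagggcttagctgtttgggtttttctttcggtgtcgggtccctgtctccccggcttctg
Htr7: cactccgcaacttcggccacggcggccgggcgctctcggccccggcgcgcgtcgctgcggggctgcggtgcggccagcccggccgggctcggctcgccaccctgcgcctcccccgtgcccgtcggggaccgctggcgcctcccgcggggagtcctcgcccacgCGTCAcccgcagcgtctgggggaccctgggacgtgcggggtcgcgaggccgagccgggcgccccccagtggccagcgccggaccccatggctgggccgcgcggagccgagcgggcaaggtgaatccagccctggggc

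The Hlx promoter had a GC content of 44.3% and 14 CpG dinucleotides, with an unbroken run of 24 T bases. The Htr7 promoter had a GC content of 81.0%, higher than 99.3% of the 32851 RefSeq promoters of this length, and 46 CpG dinucleotides, more than 98.4% of them. The median promoter had 52.7% GC and 7 CpG dinucleotides. CCAAT occurred 3 times in Hlx, at -224, -198 and -181 from the start, and not in Htr7; 37.4% of all promoters held it and 3.37% held it 3 times or more. TGACG occurred in Htr7 once, at -87, and not in Hlx, against 20.8% of all promoters. Searched on both strands, the E-box CACGTG (7.15% of all promoters), TATAAA (13.6%), the GC box GGGCGG (35.7%), the AP-1 letters TGACTCA (5.20%) and the STAT letters TTCNNNGAA (8.30%) were in neither window, and the marked motifs did not overlap.

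Htr7 had 3.54 RPKM with JQ1+, 59.3 RPKM with flavopiridol and 74.0 RPKM with DMSO. The JQ1+ level was 20.9-fold lower than DMSO (interval 16.7 to 26.5) and 16.8-fold lower than flavopiridol (interval 13.4 to 21.3). Under flavopiridol Htr7 kept 80.2% of its DMSO level (interval 74.6 to 86.2), a difference larger than counting error but short of 2-fold.

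Hlx had 5.87 RPKM with JQ1+, 71.4 RPKM with flavopiridol and 65.2 RPKM with DMSO. It was 11.1-fold lower with JQ1+ than with DMSO (interval 8.95 to 13.9) and 12.2-fold lower than with flavopiridol (interval 9.79 to 15.3). Hlx was thus the gene of the 3 that kept most of its level under JQ1+, at 9.0% of DMSO (interval 7.17 to 11.2). It was also the only one of the 3 not lower with flavopiridol than with DMSO, at 110% of the DMSO level (interval 100.4 to 119).

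Dok2 had 0.896 RPKM with JQ1+, 16.0 RPKM with flavopiridol and 20.2 RPKM with DMSO. These levels rested on 49 counts with JQ1+, 797 with flavopiridol and 1236 with DMSO, the fewest of the 3 genes, so its intervals are the widest. It was 22.6-fold lower with JQ1+ than with DMSO (interval 14.0 to 38.9) and 17.9-fold lower than with flavopiridol (interval 11.0 to 30.9). Under flavopiridol it kept 79.1% of its DMSO level (interval 67.8 to 92.1), close to the share kept by Htr7. In bulk RNA, fewer cells that express a gene and less RNA of it per cell cannot be told apart.

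**Figure D1:**
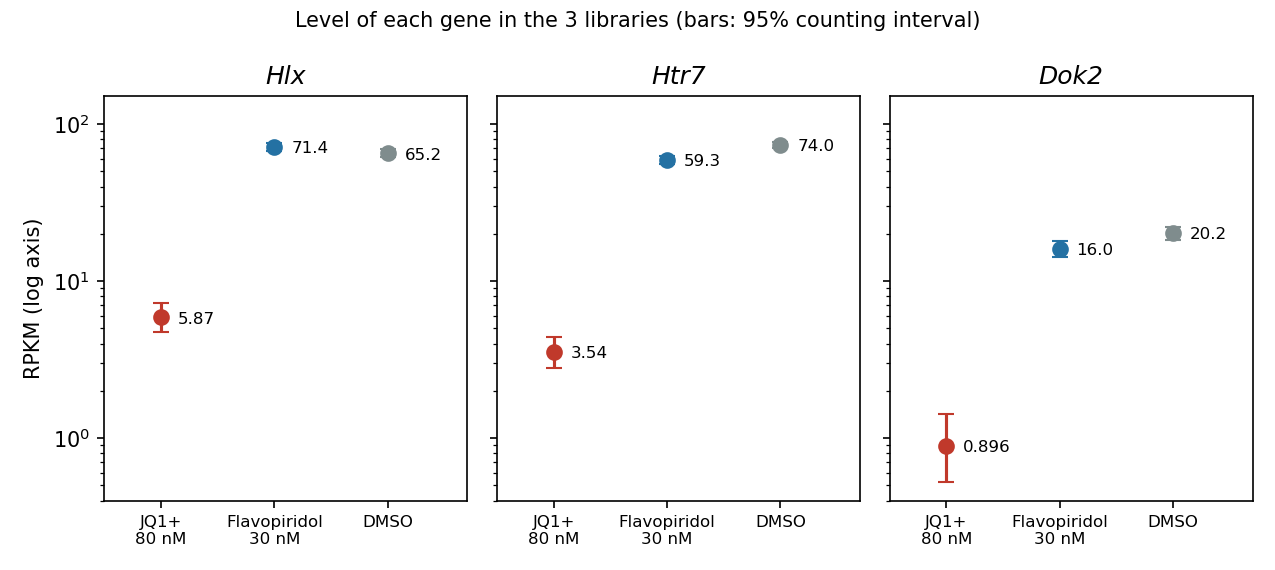
RPKM on a log axis (vertical) of Hlx, Htr7 and Dok2 in the JQ1+, flavopiridol and DMSO libraries (horizontal), 1 point per library with its 95% counting interval. In each panel the JQ1+ point lies at least 11-fold below the other points, which lie within 2-fold of each other.

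The order of the 3 genes differed between the libraries. With JQ1+ the order was Hlx, Htr7, Dok2, and Htr7 stood at 0.602 times Hlx (interval 0.440 to 0.824). With flavopiridol the order was the same, with Htr7 at 0.831 times Hlx (interval 0.763 to 0.904). With DMSO Htr7 came first, at 1.13 times Hlx (interval 1.05 to 1.22). Dok2 was the lowest in every library, and Hlx stood above it 6.55-fold with JQ1+ (interval 3.89 to 11.7), 4.46-fold with flavopiridol (interval 3.91 to 5.11) and 3.22-fold with DMSO (interval 2.88 to 3.61).

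Among the 14790 genes that averaged 1 RPKM or more over the libraries, Htr7 and Hlx were well expressed with either flavopiridol or DMSO. Htr7 stood above 19.97% of these genes with JQ1+, 75.2% with flavopiridol and 80.9% with DMSO. Hlx stood above 27.5% with JQ1+, 78.9% with flavopiridol and 78.6% with DMSO. Dok2 was a gene of middling level, above 3.91% of genes with JQ1+, 44.4% with flavopiridol and 51.4% with DMSO.

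Below, rose and fell are used for genes past 2-fold (log2 change of 1 or more either way) after 1 RPKM was added to each level, which understates the changes of low genes. By this rule 3 of the 3 genes fell with JQ1+ against DMSO, where 5.29% of all 14790 genes fell and 1.98% rose, and 3 of 3 were lower with JQ1+ than with flavopiridol, where 6.87% were lower and 2.06% higher. With flavopiridol against DMSO 0 of 3 fell and 0 rose, where 2.88% of all genes fell and 3.55% rose. Since these contrasts chose the genes, nothing is read from these counts.

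The log2 changes with the added 1 RPKM can be set beside the median of all genes, because that median was not 0. With JQ1+ against DMSO the changes were -4.05 for Htr7, -3.49 for Dok2 and -3.27 for Hlx, and the median of all genes was -0.08. With flavopiridol against DMSO they were -0.31 for Htr7, -0.32 for Dok2 and 0.13 for Hlx, and the median was 0.13. Relative to that median Hlx was at -0.00065, Htr7 at -0.44 and Dok2 at -0.45, so the difference of Hlx under flavopiridol was that of the typical gene.

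Genes with the same pattern made up a small group. Of the 14790 genes, 312 (2.11%) were lower with JQ1+ than with both DMSO and flavopiridol and within 2-fold of DMSO under flavopiridol, and 177 of 11367 genes (1.56%) averaging 5 RPKM or more were. Ordered by the JQ1+ against flavopiridol change among the 10882 such genes within 2-fold of DMSO under flavopiridol, Htr7 came at place 2 (-3.73), Hlx at 3 (-3.40) and Dok2 at 4 (-3.16). Place 1 was held by B3gnt7 (-4.32), a glycosyltransferase gene that extends sugar chains, which met the same description at 111.8 RPKM with flavopiridol against 58.8 with DMSO, a ratio of 1.90 (interval 1.77 to 2.05) that lies near the 2-fold limit. Just below Dok2 came the cytokine gene Il6 (-3.08), the membrane protein gene Tmem176b (-3.08), the mitochondrial nucleoside diphosphate kinase gene Nme4 (-2.996), the CD30 gene Tnfrsf8 (-2.99) and the small nucleolar RNA Gm25820 (-2.97). No gap in these values separates Dok2 from Il6.

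**Figure D2:**
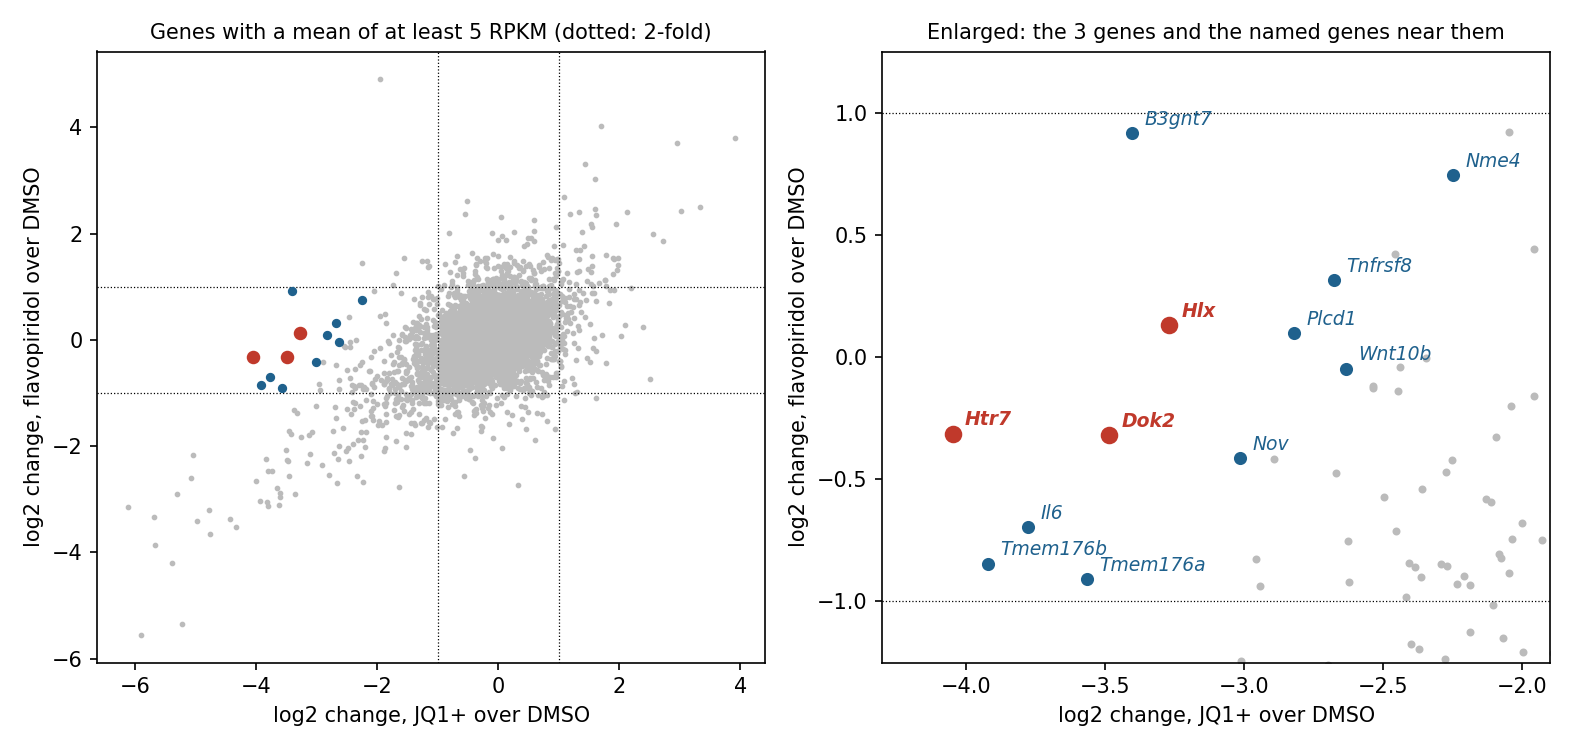
Log2 change with JQ1+ over DMSO (horizontal) against log2 change with flavopiridol over DMSO (vertical), 1 point per gene averaging at least 5 RPKM, all genes on the left and an enlarged part on the right, with dotted lines at 2-fold. Hlx, Htr7 and Dok2 (red) lie far left of the main cloud between the horizontal lines, next to Il6, Nov, Plcd1 and the other named genes (blue).

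Likeness was measured as the straight-line distance in the plane of both log2 changes against DMSO, over the 3 libraries and 9010 genes averaging at least 5 RPKM, small RNAs, histones and gene models without a name left out. Nearest to Hlx was Plcd1, a phospholipase C gene, at a distance of 0.45, with 1.64 RPKM with JQ1+, 19.0 with flavopiridol and 17.7 with DMSO. Then came Dok2 (0.50), the matricellular protein gene Nov (0.60), Tnfrsf8 (0.62) and the Wnt ligand gene Wnt10b (0.66). Wnt10b had 6.60 RPKM with JQ1+, 44.6 with flavopiridol and 46.2 with DMSO, and Tnfrsf8 had 19.9, 165.7 and 132.9 RPKM in the JQ1+, flavopiridol and DMSO libraries.

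Il6 was the gene nearest to both Htr7 (0.47) and Dok2 (0.47). Il6 had 2.56 RPKM with JQ1+, 29.2 with flavopiridol and 47.8 with DMSO. Next for Htr7 were Tmem176b (0.55), Dok2 (0.56), Tmem176a (0.77) and Hlx (0.90), and next for Dok2 were Nov (0.48), Hlx (0.50), Htr7 (0.56) and Tmem176a (0.59). Dok2 had both of the other genes among its 5 nearest. The distance draws on the levels by which the 3 genes were chosen, so nothing is read from their closeness. Tmem176a and Tmem176b, a pair of related membrane protein genes, lay lower under flavopiridol than the 3 genes did, with log2 changes against DMSO of -0.91 and -0.85.

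The expressed relatives of each gene stayed within 2-fold in each comparison, as most genes did. Of the 7 DOK family genes 4 had a mean of at least 1 RPKM, and Dok2, chosen for its fall, was the only one of these past 2-fold in any comparison. Among all 14790 genes 5.29% fell with JQ1+ against DMSO and 6.87% were lower with JQ1+ than with flavopiridol. Nothing is read from a count over 3 other DOK genes. Dok1, which acts alongside Dok2 in myeloid cells, had 41.2 RPKM with JQ1+, 33.0 with flavopiridol and 49.9 with DMSO. Dok3 had 30.4 RPKM with JQ1+, 18.5 with flavopiridol and 29.9 with DMSO, so its JQ1+ level was 1.02 times DMSO (interval 0.870 to 1.19). Dok4 had 1.55 RPKM with JQ1+, 1.59 with flavopiridol and 1.93 with DMSO, and Dok5, Dok6 and Dok7 stayed at or below 0.248 RPKM in all libraries. Per length, Dok2 stood at 0.0295 times Dok3 with JQ1+ (interval 0.0171 to 0.0478), 0.863 times with flavopiridol (interval 0.712 to 1.05) and 0.677 times with DMSO (interval 0.587 to 0.782). Dok2 and Dok3 therefore did not differ beyond counting error with flavopiridol, and neither did Dok2 and Dok4 with JQ1+ (0.578 times, interval 0.297 to 1.098).

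Dok1 and Dok3 also differed from Dok2 in which library held the lowest level. Dok1 under flavopiridol was 0.662 times DMSO (interval 0.584 to 0.749) and Dok3 was 0.620 times DMSO (interval 0.514 to 0.747), and each was lower with flavopiridol than with JQ1+. Dok3 with JQ1+ stood at 1.64 times its flavopiridol level (interval 1.36 to 1.98). These differences were short of 2-fold but larger than counting error.

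Partners of the DOK proteins and regulators of RAS were measured as well. Of 18 expressed genes of this list (here and below, averaging 1 RPKM or more), 0 passed 2-fold in any of the 3 comparisons, a count close to the shares of all genes given above (5.29% lower and 1.98% higher with JQ1+ against DMSO, for example). The list medians were -0.04 for JQ1+ against DMSO, -0.07 for flavopiridol against DMSO and -0.02 for JQ1+ against flavopiridol, beside -0.08, 0.13 and -0.21 for all 14790 genes in the same comparisons. The genes with the largest differences between the drugs were Nras (-0.69), the B cell tyrosine kinase gene Lyn (0.63), the RAS inactivator gene Rasa3 (0.54) and the linker gene Grb2 (-0.50).

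Among 18 expressed lymphocyte adaptor genes, 2 fell with JQ1+ against DMSO and 1 fell with flavopiridol against DMSO. With JQ1+ against flavopiridol 2 were lower and 1 higher, and both of the lower ones had the pattern of Dok2. Among all 14790 genes 5.29% fell with JQ1+ and 2.88% with flavopiridol, each against DMSO. Between the drugs 6.87% were lower and 2.06% higher with JQ1+, and 2.11% had the pattern. Nothing is read from counts this small. Lcp2, which encodes the SLP-76 scaffold of T cell receptor signalling, had 11.9 RPKM with JQ1+, 70.5 with flavopiridol and 94.5 with DMSO. It was 7.97-fold lower with JQ1+ than with DMSO (interval 7.14 to 8.93) and kept 0.747 of its DMSO level under flavopiridol (interval 0.705 to 0.791). Gab2, a docking protein for receptor kinases, had 0.575 RPKM with JQ1+, 3.26 with flavopiridol and 2.77 with DMSO. The ubiquitin ligase gene Cblb was the gene higher with JQ1+ than with flavopiridol (1.03), and Themis2, a B cell signalling adaptor, fell with flavopiridol against DMSO (-1.22). The list medians were -0.05, -0.16 and 0.21 for JQ1+ against DMSO, flavopiridol against DMSO and JQ1+ against flavopiridol.

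**Figure D3:**
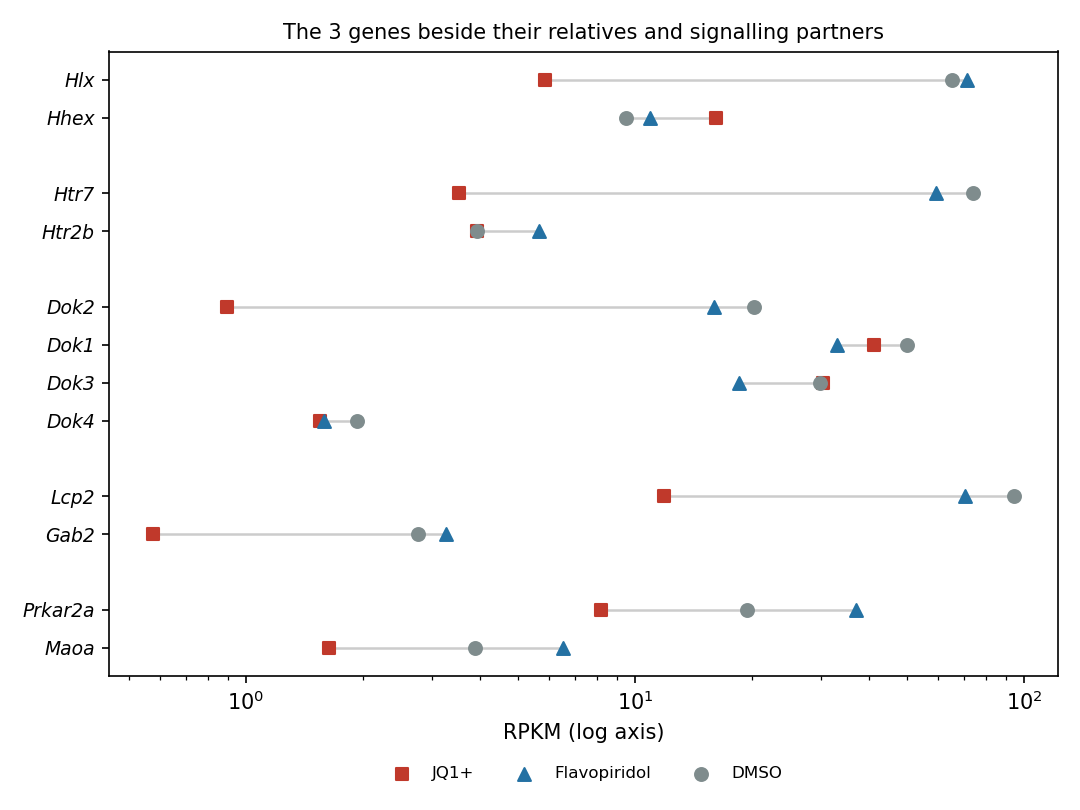
RPKM on a log axis (horizontal) of Hlx, Htr7 and Dok2, of their family members averaging at least 1 RPKM, and of 4 signalling genes picked after their values were seen (rows), with 1 symbol each for the JQ1+, flavopiridol and DMSO libraries. Hlx, Htr7, Dok2, Lcp2 and Gab2 have the JQ1+ symbol far to the left and the other symbols close together, whereas Dok1, Dok3, Dok4, Htr2b and Hhex have all 3 symbols within 2-fold.

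With flavopiridol or DMSO, Htr7 was by far the most abundant serotonin receptor transcript. Of 14 serotonin receptor genes listed, Htr7 and Htr2b had a mean of at least 1 RPKM, and the other 12 did not exceed 0.109 RPKM in any library. Htr2b, whose receptor couples to Gq, had 3.93 RPKM with JQ1+, 5.66 with flavopiridol and 3.92 with DMSO. Htr7 stood at 0.899 times Htr2b with JQ1+ (interval 0.631 to 1.29), 10.49 times with flavopiridol (interval 8.28 to 13.5) and 18.9 times with DMSO (interval 14.6 to 24.7), so with JQ1+ the levels of the pair did not differ beyond counting error.

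Genes that make serotonin were near 0. Tph1 and Tph2, the rate-limiting hydroxylases, were at 0 RPKM with JQ1+ and with DMSO and at 0.047 and 0.101 RPKM with flavopiridol, and the serotonin transporter gene Slc6a4 did not exceed 0.193 RPKM. Among all 14790 genes 5.29% fell and 1.98% rose with JQ1+, and 2.88% fell and 3.55% rose with flavopiridol, each against DMSO. Between the drugs 6.87% were lower with JQ1+. Of only 3 expressed genes for serotonin handling, 0 passed 2-fold with either drug against DMSO and 1 was lower with JQ1+ than with flavopiridol. This was Maoa, the monoamine oxidase that breaks serotonin down, with 1.63 RPKM with JQ1+, 6.52 with flavopiridol and 3.88 with DMSO. Its log2 change was -1.51 between the drugs, -0.89 for JQ1+ against DMSO and 0.62 for flavopiridol against DMSO. The others were the vesicular transporter gene Slc18a2 (-0.21 between the drugs) and Aldh2 (0.07).

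The signalling chain downstream of Gs was expressed in all libraries. With JQ1+ against DMSO, 1 of 18 expressed cyclic AMP pathway genes fell and 0 rose. With flavopiridol against DMSO 0 fell and 1 rose, and 1 was lower and 0 higher with JQ1+ than with flavopiridol. Among all 14790 genes 5.29% fell and 1.98% rose with JQ1+, and 2.88% fell and 3.55% rose with flavopiridol, each against DMSO. Between the drugs 6.87% were lower and 2.06% higher with JQ1+, so the list counts were near the shares of all genes. Prkar2a, a regulatory subunit of protein kinase A, was the gene that fell with JQ1+, with 8.19 RPKM with JQ1+, 37.0 with flavopiridol and 19.4 with DMSO. It met the same pattern as Htr7, although under flavopiridol it stood at 1.91 times DMSO (interval 1.72 to 2.12), near the limit. Prkar2b, another regulatory subunit, had 1.58 RPKM with JQ1+, 1.74 with flavopiridol and 0.351 with DMSO. Its log2 changes against DMSO were nearly alike, 0.93 with JQ1+ and 1.02 with flavopiridol, on either side of the 2-fold limit, and after rescaling by the median of ratios 0 genes of the list passed it with flavopiridol. Crem, a transcription factor gene that responds to cyclic AMP, had a log2 change of -0.94 for JQ1+ against DMSO and -0.02 for flavopiridol against DMSO. The list medians were -0.04, 0.08 and -0.13 in the order JQ1+ against DMSO, flavopiridol against DMSO and JQ1+ against flavopiridol.

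Other receptors that couple to Gs moved differently from Htr7. Of 7 expressed, 0 fell with either drug against DMSO, and 0 differed by 2-fold between the drugs. Among all 14790 genes 5.29% fell with JQ1+ and 2.88% with flavopiridol, each against DMSO. Between the drugs 6.87% were lower and 2.06% higher with JQ1+, so 0 of 7 lay near these shares. The prostaglandin E2 receptor gene Ptger4 had 19.2 RPKM with JQ1+, 36.1 with flavopiridol and 14.2 with DMSO, and rose with flavopiridol.

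Hlx was likewise nearly alone among its class. Of 27 NKL homeobox genes listed, Hlx and Hhex had a mean of at least 1 RPKM, and the other 25 did not exceed 0.445 RPKM in any library. Hhex, a regulator of B cell development, had 16.2 RPKM with JQ1+, 10.9 with flavopiridol and 9.47 with DMSO, so with JQ1+ it stood at 1.71 times DMSO (interval 1.46 to 1.998). Hlx stood at 0.363 times Hhex with JQ1+ (interval 0.285 to 0.457), 6.56 times with flavopiridol (interval 5.71 to 7.55) and 6.89 times with DMSO (interval 6.02 to 7.90), so the order of the pair was turned round with JQ1+.

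Of 19 other expressed homeobox genes, 2 fell with JQ1+ against DMSO and the same number fell with flavopiridol against DMSO. Of these 19 genes, 1 was lower with JQ1+ than with flavopiridol, and 0 had the pattern of Hlx. Of all 14790 genes, 5.29%, 2.88% and 6.87% fell or were lower in these comparisons, in that order, and 2.11% had the pattern. With so few genes, nothing is read from these counts. Satb1, a chromatin organiser, had 15.8 RPKM with JQ1+, 44.7 with flavopiridol and 108.4 with DMSO, so it fell with both drugs. Meis3 fell with both as well, at 2.51 RPKM with JQ1+, 3.39 with flavopiridol and 9.55 with DMSO. Zeb2 had log2 changes of -0.71 for JQ1+ against DMSO and 0.19 for flavopiridol against DMSO.

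The genes that act with Hlx in T helper type 1 cells were mostly near 0. Of 10 listed, 4 had a mean of at least 1 RPKM; Tbx21, the T-bet gene, and Ifng, the interferon-gamma gene, were among the 6 that stayed at or below 0.414 RPKM in all libraries. Il12rb1, an interleukin-12 receptor chain, had the pattern of Hlx at a smaller size, with 7.11 RPKM with JQ1+, 16.2 with flavopiridol and 24.7 with DMSO. Stat4, which carries the interleukin-12 signal, fell with JQ1+ (-1.22) and had a log2 change of -0.64 with flavopiridol, each against DMSO. In all, 2 of the 4 fell with JQ1+ against DMSO and 0 with flavopiridol against DMSO. Between the drugs 2 were lower with JQ1+ than with flavopiridol, the other being Il12rb2 (-1.15). The shares of all 14790 genes were 5.29%, 2.88% and 6.87% in that order, and 4 genes are too few to compare with them. After rescaling by the median of ratios 0 of the 4 differed by 2-fold between the drugs, so Il12rb1 (-1.08 as deposited) no longer had the pattern.

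Most genes next to the 3 on the chromosome, in the order of the GENCODE M21 annotation, were too low to show a fall. Only Marc2, Rpp30, Xpo7 and Npm2 exceeded 1 RPKM in any library, and they did not fall with JQ1+ against DMSO. Of all 14790 genes 5.29% fell in that comparison, so nothing is read from so few neighbours. The other neighbours did not exceed 0.231 RPKM in any library. Hlx lies on chromosome 1, where the nearest neighbour with a level above 1 RPKM, the reductase gene Marc2, had 22.7 RPKM with JQ1+, 26.9 with flavopiridol and 26.6 with DMSO. Htr7 lies on chromosome 19 beside Rpp30, a ribonuclease P subunit gene, which had 63.1 RPKM with JQ1+, 121.2 with flavopiridol and 80.7 with DMSO. Its log2 change with JQ1+ against flavopiridol was -0.93, just short of 2-fold. Dok2 lies on chromosome 14, and its start overlaps that of Xpo7, a nuclear export receptor gene on the opposite strand, by 593 bases in that annotation. The other neighbour above 1 RPKM in any library was Npm2, an oocyte histone chaperone gene, with 0.585 RPKM with JQ1+, 2.28 with flavopiridol and 0.286 with DMSO. Npm2 was past 2-fold lower with JQ1+ than with flavopiridol (-1.05), on 11 and 39 counts. Xpo7 had 17.4 RPKM with JQ1+, 23.2 with flavopiridol and 17.5 with DMSO. As the use of strand in counting is not stated, reads in the shared stretch cannot be assigned to either gene.

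**Figure D4:**
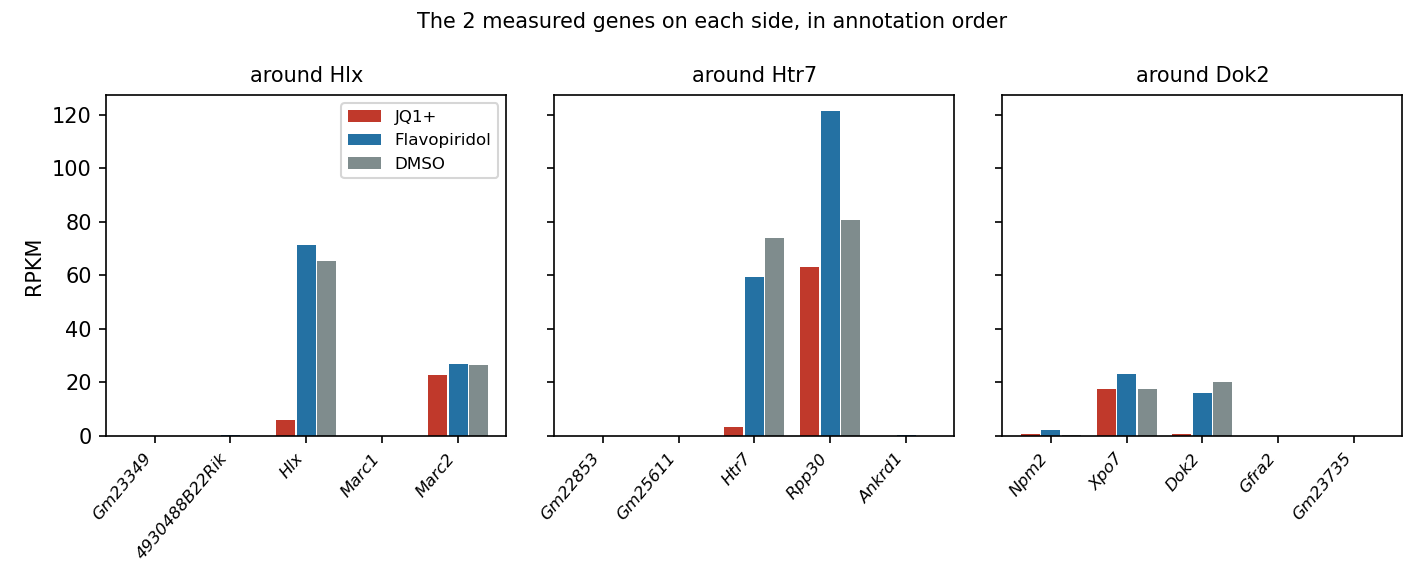
RPKM (vertical, linear from 0) of each of the 3 genes and of the 2 measured genes on each side of it (horizontal), with bars for the JQ1+, flavopiridol and DMSO libraries. The JQ1+ bar is far below the others for Hlx, Htr7 and Dok2, and within 2-fold of the DMSO bar for the neighbours Marc2, Rpp30 and Xpo7.

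Markers of the labelled cell type were high, and those of most other blood cells were low. The 8 B cell markers summed to 4892 RPKM with JQ1+, 3995 with flavopiridol and 4046 with DMSO. Dok2 is known from myeloid and T cells. The T cell receptor gene Cd3e stood at 0, 0 and 0.066 RPKM in the JQ1+, flavopiridol and DMSO libraries. In the same order Cd3d stood at 0.862, 0.506 and 0.359 RPKM and Cd3g at 0.496, 0.054 and 0 RPKM. The 9 T cell markers summed to 61.2, 43.9 and 65.5 RPKM, most of it from Cd2, Lck and Cd247. Of 7 granulocyte markers, S100a8, S100a9, Elane and Ly6g were at 0 in every library and Mpo and Cxcr2 did not exceed 0.105 RPKM. The granulocyte receptor gene Csf3r had 0.218 RPKM with JQ1+, 0.056 with flavopiridol and 1.66 with DMSO, 7.62-fold lower with JQ1+ than with DMSO (interval 3.28 to 21.7). The 8 markers of NK and innate lymphoid cells, 6 of mast cells and basophils, 5 of platelets and megakaryocytes and 4 measured erythroid markers each summed to at most 3.43 RPKM in any library. The 9 monocyte and macrophage markers summed to 7.89 RPKM with JQ1+, 14.8 with flavopiridol and 8.31 with DMSO. The F4/80 gene Emr1 had the highest level of these with flavopiridol (0.801 RPKM with JQ1+, 9.47 with flavopiridol and 0.922 with DMSO). The receptor gene Csf1r had the highest with JQ1+ and with DMSO (4.03, 3.95 and 6.41 RPKM in the JQ1+, flavopiridol and DMSO libraries). Unlike the 3 genes, Lyz2 was highest with JQ1+, at 1.94, 0.044 and 0.181 RPKM in the same order. Its JQ1+ level was 10.7 times DMSO (interval 2.38 to 117), from 48 counts against 5. The other markers of this list did not exceed 0.593 RPKM in any library.

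Some dendritic cell markers were lower with JQ1+, as the 3 genes were. The 7 markers summed to 10.7 RPKM with JQ1+, 35.1 with flavopiridol and 90.0 with DMSO. Of the 4 with a mean of at least 1 RPKM 2 fell with JQ1+ and 1 with flavopiridol, each against DMSO. Between the drugs 3 were lower with JQ1+, Flt3 (-2.13), Batf3 (-1.60) and Xcr1 (-1.03). Among all 14790 genes 5.29% fell with JQ1+ and 2.88% with flavopiridol, and 6.87% were lower with JQ1+ than with flavopiridol. The 4 genes are too few to compare with these shares. The transcription factor gene Batf3, which made up most of the DMSO sum, had 2.98 RPKM with JQ1+, 11.1 with flavopiridol and 55.9 with DMSO, and so fell with both drugs. The receptor gene Flt3 had 2.55 RPKM with JQ1+, 14.6 with flavopiridol and 26.6 with DMSO, and so met the pattern of the 3 genes. Zbtb46 (-0.51) and Xcr1 (-0.12) did not pass 2-fold with JQ1+ against DMSO. Xcr1 had its highest level with flavopiridol, at 2.59 RPKM, beside 0.763 with JQ1+ and 0.918 with DMSO. The defining markers Itgax, Clec9a and Siglech stayed at or below 0.032 RPKM in all libraries. The 6 markers of stroma and endothelium summed to 5.69 RPKM with JQ1+, 12.5 with flavopiridol and 22.8 with DMSO, nearly all from Pecam1, which leukocytes also express. The part of other cell types in the levels of the 3 genes was not tested.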

How the data were processed

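RNA was extracted with Trizol and depleted of ribosomal RNA, per the labels' protocols, and 1 library was sequenced for each of JQ1+, flavopiridol and DMSO. Each deposited table gives, per the file headers, a whole-number count of reads and an RPKM for each gene. The submitters' processing notes name the build mm9; the aligner, counter and annotation, and whether strand was used, are not stated there or in the file headers. Counts summed to 51247080 with JQ1+, 50184508 with flavopiridol and 59786847 with DMSO.

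The deposited RPKM values were used as they stand. Where a symbol had more than 1 row, the most expressed was kept, which left 33605 symbols. The library totals behind the RPKM, computed from GENCODE M21 exon lengths, were smaller than the count sums by 2.72, 2.92 and 2.84 times, so counts were divided by the mean, 2.83, before exact binomial (ratios) and Poisson (levels) intervals were made; these cover counting error only. Changes of 2-fold or more (log2), with a pseudocount of 1 RPKM and a mean of at least 1 RPKM, were called. The 3 genes, the gene lists and the tests were chosen with earlier results of these data known. Genes named were the 3 genes, expressed relatives, up to 4 per other list with the largest JQ1+ against flavopiridol change, list members past 2-fold, the 5 nearest in pattern, the next 5 in order, and 2 neighbours on each side; Flt3, Emr1, Pecam1 and other markers come from the marker lists. Hras1, Sh2d1b1 and Hbb-b1 were not matched by symbol. Marc1 and Marc2 were matched by identifier. Python 3.11.15, numpy 2.4.6, pandas 2.3.3, scipy 1.17.1 and matplotlib 3.10.9 were used. Alternatives were other pseudocounts, 3 other scalings and other minimum levels. Some genes within the naming rule are not reported here.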

Additional observations from a re-analysis of the deposited data

How the results depend on the processing

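Over 5 alternatives (pseudocounts of 0.1 and 0.5 RPKM, rescaling by the median of ratios, CPM and rescaling to protein-coding counts) the 3 genes kept a fall of more than 2-fold with JQ1+ against DMSO and against flavopiridol, and stayed within 2-fold of DMSO under flavopiridol. With JQ1+ against DMSO the log2 change ranged from -4.35 to -3.97 for Htr7, from -4.35 to -3.44 for Dok2 and from -3.45 to -3.17 for Hlx. The pseudocount of 0.1 RPKM took Dok2 to -4.35 against DMSO and to -4.01 against flavopiridol. Rescaling by the median of ratios shifted the flavopiridol against DMSO median from 0.13 to -0.001 and gave -0.012 for Hlx and -0.45 for Htr7, so the sign of the small Hlx difference depends on the scaling. The count of 312 genes with the pattern was 501 with a pseudocount of 0.1, 190 with CPM and 177 with a minimum of 5 RPKM; it was 217 to 391 under the other 4 settings.

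Of 90 list counts 81 stayed within 1.5 times. Many of these were 0 in each setting, or counted only Dok2, Htr7 or Hlx, which were chosen by these contrasts. The share is therefore no measure of how stable the lists are. With a minimum of 5 RPKM the genes past 2-fold numbered 0 for the cyclic AMP list with flavopiridol against DMSO, 1 for adaptors with JQ1+ against DMSO, and 0 for serotonin handling and 1 for type 1 genes between the drugs. With rescaling they numbered 0 for the cyclic AMP list and 2 for adaptors with flavopiridol against DMSO, and 0 for type 1 genes between the drugs. With a pseudocount of 0.1 they numbered 3 for the cyclic AMP list and 1 for serotonin handling with JQ1+ against DMSO. The cause was not tested, except that a higher minimum removes genes by construction. No paired analysis was possible because each group has 1 library. Depth limits Dok2 most, with 49 counts with JQ1+.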
